A study of Mus musculus with 14 samples.

Results

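The genes described here are 10 genes listed as canonical targets of beta-catenin, a list drawn up with earlier results of these data known: Axin2, Nkd1, Nkd2, Apcdd1, Lef1, Tcf7, Tcf7l2, Sp5, Ccnd1 and Myc. Of these, 9 were measured among the 18193 genes of the array data, and Tcf7, a T cell factor, was not analysed here because no probe set carries its symbol alone. When a Wnt ligand binds its receptors, the complex that marks beta-catenin for destruction is held off, beta-catenin enters the nucleus and, with TCF or LEF proteins, activates its target genes. Several targets feed back on the pathway, and active Wnt signalling is known to hold preadipocytes back from becoming fat cells.

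RNA came from 3T3-L1, an established line of mouse embryo fibroblasts that turns into fat cells when given inducing hormones. Cells labelled KD TP53INP2, depleted of a protein known in autophagy and in the control of thyroid hormone receptors, gave 3 arrays at day 0 and 4 arrays at day 7 of differentiation. Cells labelled Control gave the same numbers. All cells were transduced with lentivirus, which per the protocol encoded an siRNA against TP53INP2 or a scrambled sequence, so the virus carried and the knockdown cannot be told apart. Day 0 is the confluent preadipocyte before induction, and day 7 is labelled adipocyte. The comparison asks whether transcripts that beta-catenin is known to induce differ when TP53INP2 is depleted. Whether replicates were separate cultures is not said, and a p-value here covers the spread between arrays only, which may be technical.

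Values are log2 expression after RMA, a method that puts arrays on a common scale, so a difference of 1 is a doubling. Array medians ran from 5.44 to 5.57. Trp53inp2, the mouse gene targeted, fell to 44.4% of its control level at day 0 and to 33.7% at day 7, and the groups did not overlap on either day. These values are of probe set 1452646_at. It read 11.06, 11.14 and 11.66 in day 0 knockdown cells, against 12.45, 12.53 and 12.38 in day 0 control cells. Replicate 3 was thus the least depleted of the day 0 knockdown arrays. The dimmer Trp53inp2 probe set 1444396_at was not lower with knockdown, with log2 fold changes of 0.20 ± 0.22 at day 0 and 0.24 ± 0.19 at day 7 (limma adjusted p = 0.722 and 0.527) and overlapping groups. Of 17 regulators and markers of fat cells, 13 rose between the days in knockdown cells and 13 in control cells, 12 of them in both, beside 35.8% and 22.9% of all genes called in either direction. Their mean was 10.83 to 11.70 in day 7 knockdown cells, against 10.07 to 11.14 in day 7 control cells. Macrophage and endothelial markers stayed below the array medians in their mean on every array. Replicate 3 of the day 0 knockdown cells stood apart from its group. It read 2.30 for the adipokine gene Adipoq, against 7.29 and 7.47 on the other knockdown arrays, and 8.31 for the proliferation marker Mki67, against 6.92 and 7.05. Adipoq read 5.73, 4.48 and 3.15 in day 0 control cells, and Mki67 read 8.03, 8.18 and 8.06 there. Replicate 3 of the day 7 knockdown cells also stood apart for Lef1, Ccnd1 and Myc, as given below.

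Knockdown changed 0 of the 9 measured targets at day 0 by limma, with 1 (Tcf7l2) at an unadjusted p under 0.05. At day 7 it raised 2 of them, Apcdd1 and Lef1, and lowered 0. With the replicate number as a block 1 was called, Apcdd1, and with a block within each day 3 were called, Apcdd1 and Lef1 higher and Ccnd1 lower. A gene was called changed at a limma adjusted p under 0.05 over all genes. That threshold was passed by 1.8% of all genes at day 0 and by 6.58% at day 7, where 3.01% were called higher. The median log2 fold change of the 9 was -0.14 at day 0 and 0.02 at day 7, beside -0.05 and -0.02 over all genes. The difference between the day 7 and day 0 effects was called for 0 of the 9 and for 0.022% of all genes. Of the 9, 3 (Apcdd1, Lef1 and Tcf7l2) had an unadjusted p under 0.05 there. How many of all genes had an unadjusted p under 0.05 was not counted. Such counts, here and for the lists below, therefore have no background share. In these bulk samples, fewer cells of a type and less RNA per cell cannot be told apart.

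**Figure D1:**
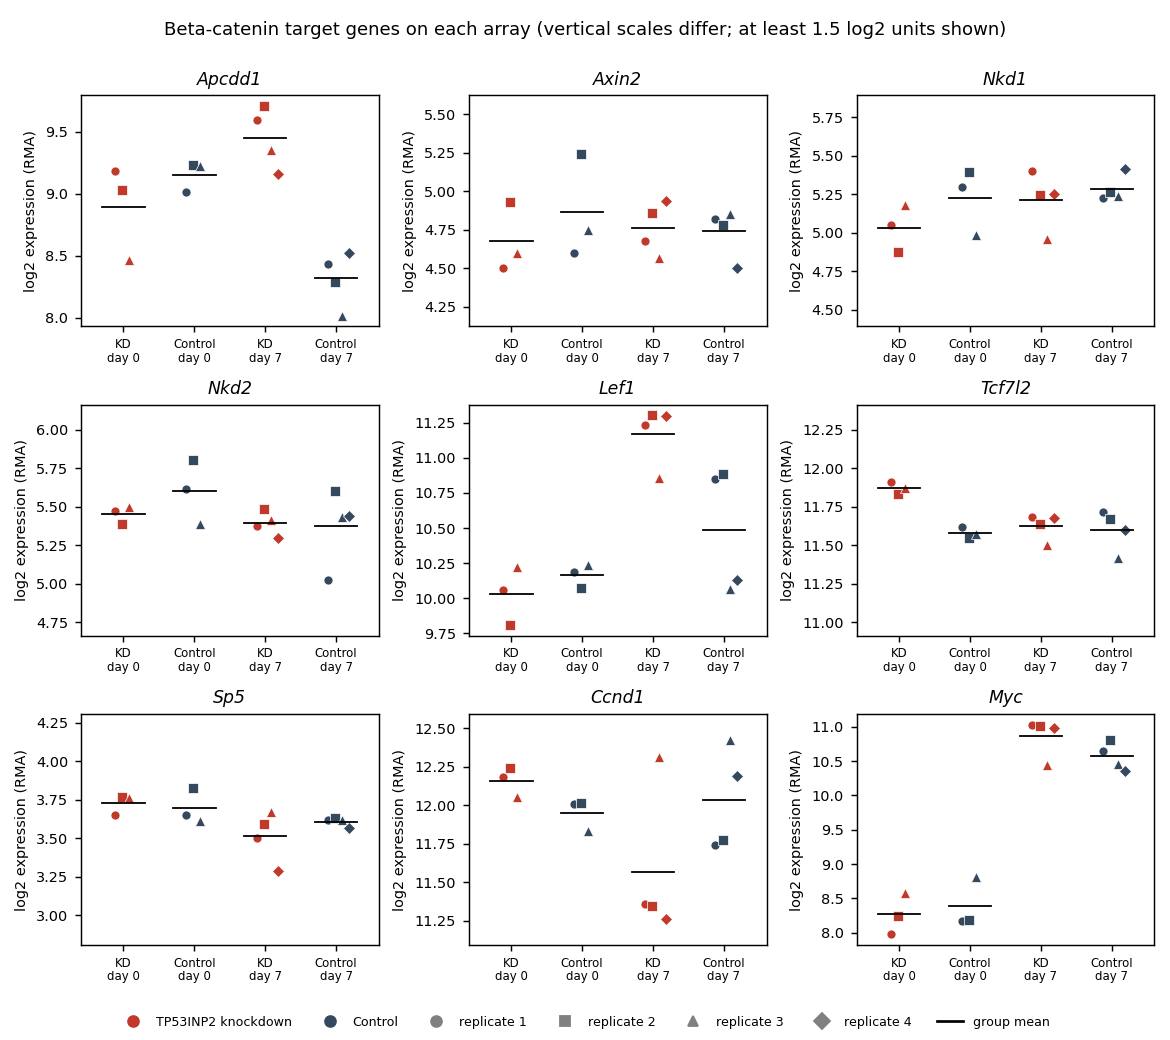
Log2 expression (RMA, vertical axis) of the 9 measured targets on each of the 14 arrays, with knockdown cells in red left of control cells in dark blue at each day; symbols mark the replicate number and lines the group means. The day 7 Apcdd1 values of knockdown cells, 9.16 to 9.71, all lie above those of control cells, 8.02 to 8.53.

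Apcdd1, a membrane protein that binds Wnt ligands and their co-receptors and inhibits the pathway, had the smallest adjusted p of the 9 targets at day 7. At day 7 it read 9.59, 9.71, 9.35 and 9.16 in knockdown cells, against 8.44, 8.29, 8.02 and 8.53 in control cells. The lowest knockdown array was above the highest control array. The log2 fold change was 1.13 ± 0.17 (SE), or 2.19-fold higher in knockdown cells (limma adjusted p = 0.00326). Of the 9 targets, 1 had day 7 groups that did not overlap, beside 13% of all genes. Within same-numbered pairs the knockdown array was higher by 1.15, 1.41, 1.33 and 0.63. The call held in 14 of 14 fits that left out 1 array, with log2 fold changes from 1.03 to 1.23. It was lost when replicates 1 and 2 of each group were averaged (1.08, limma adjusted p = 0.0886).

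The other 5 probe sets of Apcdd1 all gave a positive day 7 difference, from 0.25 to 1.22 on the log2 scale. In a fit of every named probe set, where 5.07% passed, 2 of these 5 passed. Probe set 1418382_at read 7.43, 7.72, 7.24 and 6.81 in day 7 knockdown cells, against 5.97, 5.96, 6.01 and 6.40 in day 7 control cells. Its log2 fold change was 1.22 ± 0.18 (limma adjusted p = 0.00445). Probe set 1449070_x_at had 1.20 ± 0.21 (limma adjusted p = 0.009), and its suffix, like that of 1454822_x_at, which stood for the gene above, marks probes that may bind other transcripts. Probe set 1418382_at does not carry that suffix.

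At day 0 the same gene did not pass. Apcdd1 read 9.18, 9.03 and 8.46 in day 0 knockdown cells, against 9.01, 9.23 and 9.22 in day 0 control cells. The groups overlapped, and replicate 3 was the lowest knockdown array. The log2 fold change was -0.26 ± 0.20 (limma adjusted p = 0.585), with a 95% interval from -0.69 to 0.16. A sixth probe set, 1443639_at, which read between 2.09 and 5.27, had 1.63 ± 0.59 at day 0 (limma adjusted p = 0.18), opposite in sign to the others.

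The day 7 difference of Apcdd1 exceeded its day 0 difference by 1.40 ± 0.26 on the log2 scale, which did not pass (limma adjusted p = 0.0725). It passed without the day 0 knockdown replicate 3 (1.18, limma adjusted p = 0.0355) and without the day 7 knockdown replicate 3 (1.43, limma adjusted p = 0.0341). Between the days Apcdd1 moved in opposite directions: it rose by 0.56 ± 0.18 in knockdown cells (limma adjusted p = 0.0295) and fell by 0.83 ± 0.18 in control cells (limma adjusted p = 0.00572). The rise in knockdown cells was lost without the day 0 knockdown replicate 3 (0.35, limma adjusted p = 0.149). It was also lost without day 7 knockdown replicate 1 (0.51, limma adjusted p = 0.0747) or 2 (0.48, limma adjusted p = 0.0843). The decrease in control cells held in 14 of 14 such fits.

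**Figure D2:**
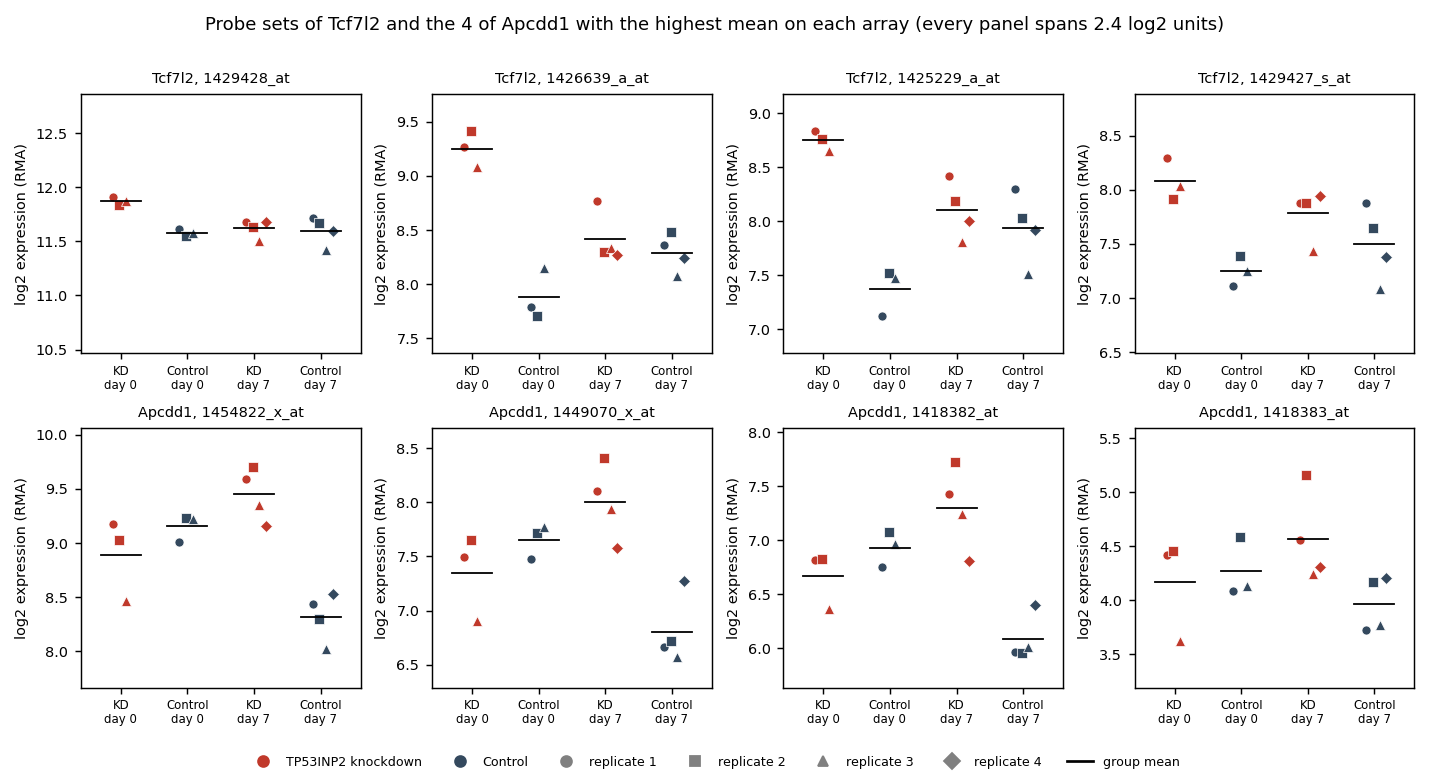
Log2 expression (RMA, vertical axis) of 4 Tcf7l2 probe sets (top) and the 4 Apcdd1 probe sets of highest mean (bottom) on each array, knockdown cells in red left of control cells in dark blue; symbols mark the replicate number and lines the group means. The Tcf7l2 groups part at day 0, by 0.29 to 1.38 between group means, and the Apcdd1 groups at day 7, by 0.60 to 1.22.

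The other feedback inhibitors did not pass at either day. Axin2, a scaffold of the destruction complex and the most widely used reporter of the pathway, read 4.50, 4.93 and 4.60 in day 0 knockdown cells, against 4.60, 5.25 and 4.75 in day 0 control cells. At day 7 it read 4.68, 4.86, 4.56 and 4.94 in knockdown cells, against 4.82, 4.78, 4.85 and 4.50 in control cells. The groups overlapped on both days. Its log2 fold change was -0.19 ± 0.17 at day 0 (limma adjusted p = 0.677), with a 95% interval from -0.57 to 0.19. At day 7 it was 0.02 ± 0.15 (limma adjusted p = 0.963), with an interval from -0.31 to 0.35. A second probe set of Axin2, 1436845_at, had 0.30 ± 0.13 at day 7 (limma adjusted p = 0.196) with groups that did not overlap, beside 13% of all genes. It read 3.41, 3.43, 3.60 and 4.05 in knockdown cells, against 3.18, 3.34, 3.40 and 3.37 in control cells.

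Nkd1 and Nkd2, inhibitors that act on Dishevelled inside the cell, ranged from 4.87 to 5.41 and from 5.02 to 5.80 over all arrays. Nkd1 had log2 fold changes of -0.19 at day 0 and -0.07 at day 7 (limma adjusted p = 0.557 and 0.766). Those of Nkd2 were -0.15 and 0.02 (limma adjusted p = 0.69 and 0.953). The other 3 probe sets of Nkd2 were also below 0 at day 0 and did not pass. Groups did not overlap for 2 of them, beside 22.6% of all genes at that day. Of these, 1419466_at read 3.93, 4.26 and 4.39 in day 0 knockdown cells, against 4.63, 4.69 and 4.58 in day 0 control cells (-0.44 ± 0.17, limma adjusted p = 0.194). Probe set 1457600_x_at read 2.74, 2.91 and 2.68 in knockdown cells, against 3.29, 3.20 and 2.92 in control cells (-0.36 ± 0.13, limma adjusted p = 0.166). All values of these 2 probe sets lay below every array median. The 95% intervals of Nkd1 ran from -0.49 to 0.10 at day 0 and from -0.33 to 0.18 at day 7. Axin2, Nkd1 and Sp5 read below 5.44, the lowest array median, on every array, and RMA compresses differences that low on its scale.

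Lef1, the partner through which beta-catenin binds DNA and itself a target, was the other gene called at day 7. It read 11.23, 11.30, 10.85 and 11.30 in day 7 knockdown cells, against 10.85, 10.89, 10.07 and 10.13 in day 7 control cells. Knockdown replicate 3 lay within the range of the control arrays, and in each same-numbered pair the knockdown array was higher, by 0.38, 0.42, 0.79 and 1.17. The log2 fold change was 0.69 ± 0.19, or 1.61-fold higher (limma adjusted p = 0.04996). Blocking on replicate number ended the call (limma adjusted p = 0.0538), and a block within each day left it called (limma adjusted p = 0.016). The call held in 3 of 14 fits that left out 1 array, those without day 7 control replicate 1 or 2 or day 7 knockdown replicate 3. Over these 14 fits the log2 fold change ran from 0.55 to 0.82 and the limma adjusted p from 0.0193 to 0.139. Adjusted over every named probe set, the same values gave limma adjusted p = 0.0557.

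At day 0 Lef1 read 10.06, 9.81 and 10.22 in knockdown cells, against 10.19, 10.08 and 10.24 in control cells. The log2 fold change of -0.14 ± 0.22 did not pass (limma adjusted p = 0.842), and the day 7 difference exceeded it by 0.82 ± 0.29 (limma adjusted p = 0.256). Between the days Lef1 rose by 1.14 ± 0.21 in knockdown cells (limma adjusted p = 0.00075), with no overlap. In control cells the change was 0.32 ± 0.21 (limma adjusted p = 0.322). The other Lef1 probe set, 1421299_a_at, read 4.78, 5.06, 3.52 and 3.86 in day 7 knockdown cells, against 3.54, 3.93, 2.89 and 3.02 in day 7 control cells. It had 0.96 ± 0.31 at day 7 (limma adjusted p = 0.0918), and limma adjusted p = 0.0377 in the blocked fit.

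Tcf7l2, the TCF protein best known in adipose cells, was higher at day 0 in all its probe sets. The others passed the threshold and the one that stood for the gene did not. That probe set, 1429428_at, read 11.91, 11.84 and 11.87 in day 0 knockdown cells, against 11.62, 11.55 and 11.58 in day 0 control cells. Every knockdown array was above every control array, by a log2 fold change of 0.29 ± 0.09 that did not pass (limma adjusted p = 0.145). Ccnd1 was the other target whose day 0 groups did not overlap, which makes 2 of 9 beside 22.6% of all genes. At day 7 Tcf7l2 read 11.68, 11.64, 11.50 and 11.68 in knockdown cells, against 11.72, 11.67, 11.42 and 11.60 in control cells, with a log2 fold change of 0.02 ± 0.08 (limma adjusted p = 0.899). It fell by 0.25 ± 0.09 between the days in knockdown cells (limma adjusted p = 0.0382), a call kept in 7 of 14 fits that left out 1 array (limma adjusted p from 0.0209 to 0.116). The change in control cells was 0.02 ± 0.09 (limma adjusted p = 0.92). Of the other 3 probe sets 1 passed in control cells: 1425229_a_at rose by 0.57 (limma adjusted p = 0.0446 over every named probe set).

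In the fit of every named probe set, where 2.43% passed at day 0, the other 3 probe sets of Tcf7l2 were all higher in knockdown cells at that day. Probe set 1426639_a_at read 9.27, 9.42 and 9.08 in day 0 knockdown cells, against 7.79, 7.70 and 8.15 in day 0 control cells. Its log2 fold change was 1.37 ± 0.17, or 2.59-fold (limma adjusted p = 0.00135). The groups were parted by more than the spread within either of them. Probe set 1425229_a_at read 8.84, 8.76 and 8.65 in knockdown cells, against 7.12, 7.52 and 7.47 in control cells, a difference of 1.38 ± 0.20 (limma adjusted p = 0.0037). Both calls held in 14 of 14 fits that left out 1 array. Probe set 1429427_s_at read 8.29, 7.91 and 8.04 in knockdown cells, against 7.11, 7.39 and 7.25 in control cells. Its difference of 0.83 ± 0.20 (limma adjusted p = 0.0446) was kept in 3 of 14 such fits, with limma adjusted p from 0.0252 to 0.169. With replicates 1 and 2 averaged, all 3 missed the threshold (limma adjusted p = 0.0696, 0.106 and 0.333).

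None of these 3 probe sets passed at day 7, where their log2 fold changes were 0.13 to 0.29. Probe set 1426639_a_at read 8.76, 8.30, 8.34 and 8.27 in day 7 knockdown cells, against 8.36, 8.48, 8.07 and 8.24 in day 7 control cells, and the groups overlapped. Its day 7 difference was below its day 0 difference by 1.25 ± 0.22 on the log2 scale (limma adjusted p = 0.0455; blocked fit 0.0557), in a contrast that 0.215% of probe sets passed. That call was kept in 5 of 14 fits that left out 1 array, with limma adjusted p from 0.0246 to 0.119. Between the days this probe set fell by 0.84 ± 0.15 in knockdown cells (limma adjusted p = 0.00093, beside 34.5% of probe sets called) and had 0.41 ± 0.15 in control cells (limma adjusted p = 0.0836). The suffix _a_at marks probes shared by several transcripts of 1 gene, and which Tcf7l2 transcripts each probe set reads was not tested.

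A measure of RNA quality differed between the same day 0 groups. The log2 difference between the 3' and 5' control probe sets of beta-actin was 2.98 ± 0.25 in day 0 knockdown cells and 3.54 ± 0.22 in day 0 control cells (SD, n = 3 each), with no overlap. For Gapdh it was 1.77 ± 0.16 in knockdown cells and 2.18 ± 0.22 in control cells, and for Tfrc it was 2.73 ± 1.28 in knockdown cells and 3.08 ± 0.10 in control cells. The part of RNA quality in the day 0 values of Tcf7l2 was not tested probe by probe. With that beta-actin measure added to the fit, an alternative added after seeing the data, 1429428_at had 0.44 (limma adjusted p = 0.0351). At day 0 the measure and the knockdown go together without overlap. The part of RNA quality was therefore not tested by that fit, for this probe set or for the other 3.

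The stretches upstream of the Lef1, Tcf7l2 and Sp5 start sites are shown because TCF and LEF proteins bind short words around CTTTG. These genes encode nuclear factors of the pathway, as does Tcf7. They are also the 3 genes, of the 7 with a window, that held a word, beside 16.8% of all 27025 genes with a window. Each is the 250 bases before a RefSeq start site on the plus strand of GRCm38.p6, read 5′ to 3′, with capitals at any of 4 words on either strand. The words are CTTTGAA and, with another last base, CTTTGAT, then CTTTGTA and, with another last base, CTTTGTT, and no pair of them can overlap on 1 strand. Lef1 start 1 lies at chr3:131110047-131110296, Lef1 start 4 at chr3:131156044-131156293, Tcf7l2 start 1 at chr19:55741560-55741809, Tcf7l2 start 2 at chr19:55895071-55895320 and Sp5 at chr2:70474673-70474922.
Lef1 start 1: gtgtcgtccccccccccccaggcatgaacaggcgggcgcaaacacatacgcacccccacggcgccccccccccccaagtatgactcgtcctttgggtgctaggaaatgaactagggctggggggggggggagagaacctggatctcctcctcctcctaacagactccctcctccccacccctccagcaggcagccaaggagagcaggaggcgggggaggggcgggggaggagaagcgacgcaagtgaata
Lef1 start 4: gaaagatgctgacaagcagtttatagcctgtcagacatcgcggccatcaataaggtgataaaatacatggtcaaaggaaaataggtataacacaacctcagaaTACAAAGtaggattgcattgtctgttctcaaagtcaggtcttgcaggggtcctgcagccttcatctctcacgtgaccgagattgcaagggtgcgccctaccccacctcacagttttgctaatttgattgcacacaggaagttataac
Tcf7l2 start 1: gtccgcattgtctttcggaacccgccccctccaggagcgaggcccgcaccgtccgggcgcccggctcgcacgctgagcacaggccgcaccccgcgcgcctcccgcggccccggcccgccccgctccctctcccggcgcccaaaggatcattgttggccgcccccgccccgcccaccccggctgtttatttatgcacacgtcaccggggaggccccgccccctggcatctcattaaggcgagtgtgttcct
Tcf7l2 start 2: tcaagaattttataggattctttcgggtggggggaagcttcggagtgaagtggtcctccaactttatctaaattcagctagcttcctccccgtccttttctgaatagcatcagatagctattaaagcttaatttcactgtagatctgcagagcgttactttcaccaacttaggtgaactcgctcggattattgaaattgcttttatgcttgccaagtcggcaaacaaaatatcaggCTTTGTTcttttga
Sp5: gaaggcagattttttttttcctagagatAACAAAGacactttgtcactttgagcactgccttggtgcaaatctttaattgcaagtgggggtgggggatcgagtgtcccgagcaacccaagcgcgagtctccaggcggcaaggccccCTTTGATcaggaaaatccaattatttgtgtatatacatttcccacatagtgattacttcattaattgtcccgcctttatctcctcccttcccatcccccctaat
Neither of the Lef1 and Tcf7l2 windows at start 1 holds a word. Lef1 starts 2 and 3, Tcf7 starts 1 and 2 and the windows of Axin2, Nkd1 and Nkd2, not shown, hold none. Lef1 start 4 holds TACAAAG beginning at position -147 from the start site, and Tcf7l2 start 2 holds CTTTGTT at -14. Sp5 holds AACAAAG at -222 and CTTTGAT at -104. Windows were at hand for 7 of the 10 listed genes, 12 windows in all, and 3 of the 12 held a word, beside 14.8% of 32851 windows of the same length over all genes. A match is a description of the letters, and binding at these places was not measured.

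Sp5, a zinc finger protein induced by Wnt signals that can limit their output, stayed low. It read 3.65, 3.77 and 3.76 in day 0 knockdown cells, against 3.65, 3.83 and 3.61 in day 0 control cells. The log2 fold change was 0.03 ± 0.10 at day 0 (limma adjusted p = 0.935) and -0.10 ± 0.09 at day 7 (limma adjusted p = 0.581), with 95% intervals from -0.19 to 0.26 and from -0.29 to 0.10.

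**Figure D3:**
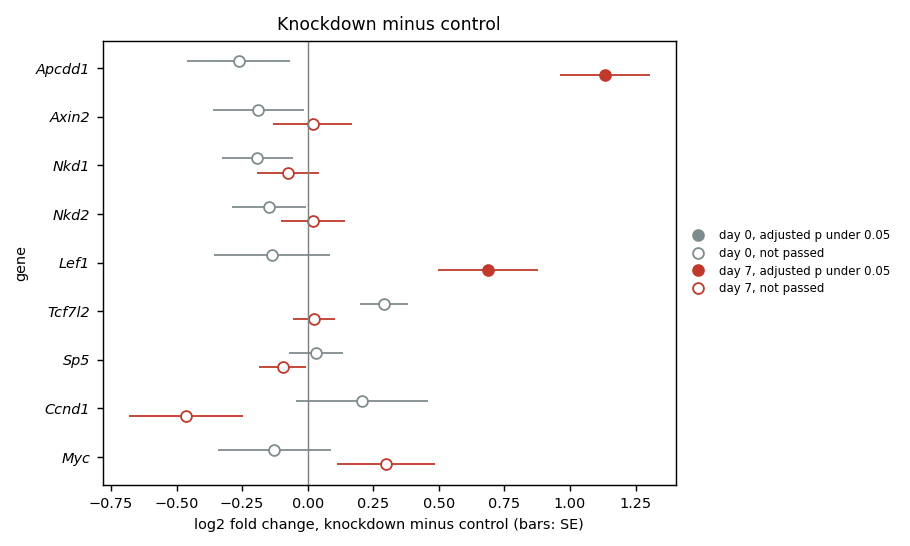
Log2 fold change, knockdown minus control (horizontal axis), of the 9 measured targets, with SE bars; grey is day 0 and red is day 7, and filled points passed a limma adjusted p under 0.05. Apcdd1 (1.13) and Lef1 (0.69) at day 7 are the filled points.

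The targets that drive growth, Ccnd1 and Myc, did not pass with knockdown. Ccnd1 encodes cyclin D1, which carries cells into S phase, and read 12.18, 12.24 and 12.05 in day 0 knockdown cells, against 12.01, 12.02 and 11.83 in day 0 control cells. The groups did not overlap, and the log2 fold change of 0.21 ± 0.25 did not pass (limma adjusted p = 0.775). That SE rests on the spread in all groups. The SD of Ccnd1 was 0.10 in each day 0 group, against 0.50 in day 7 knockdown and 0.33 in day 7 control cells. The other 2 probe sets of Ccnd1 were also higher at day 0 without overlap, by 0.26 and 0.48, and did not pass (limma adjusted p = 0.729 and 0.496). Groups did not overlap for 22.6% of all genes at day 0. At day 7 Ccnd1 read 11.36, 11.34, 12.31 and 11.26 in knockdown cells, against 11.74, 11.78, 12.43 and 12.19 in control cells. Knockdown replicate 3 stood above the other 3 knockdown arrays, and the control array of the same number was the highest of its group. The log2 fold change was -0.46 ± 0.22 (limma adjusted p = 0.221), and the knockdown array was lower in 4 of 4 pairs, by 0.38, 0.43, 0.11 and 0.93.

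The Ccnd1 value passed in some other fits. Without the day 7 knockdown replicate 3 it was -0.71 (limma adjusted p = 0.00953), and without both day 7 replicate 3 arrays -0.58 (limma adjusted p = 0.013). With a replicate block within each day the limma adjusted p was 0.0434, and with the block shared by both days it was 0.198. With the beta-actin covariate Ccnd1 was also called lower at day 7. The other 2 probe sets of Ccnd1 had -0.40 and -0.20 at day 7 and did not pass. Between the days Ccnd1 had -0.59 ± 0.24 in knockdown cells (limma adjusted p = 0.0703) and 0.08 ± 0.24 in control cells (limma adjusted p = 0.865). In knockdown cells it passed without the day 7 knockdown replicate 3 (-0.84, limma adjusted p = 0.00133). It was also called lower there without both day 7 replicate 3 arrays, without the dimmest 40% of genes and with the beta-actin covariate.

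Myc, a transcription factor of growth and ribosome production, rose with differentiation in both cell types. It read 11.03, 11.01, 10.45 and 10.98 in day 7 knockdown cells, against 7.97, 8.24 and 8.58 in day 0 knockdown cells. The rise was 2.60 ± 0.20 on the log2 scale, or 6.07-fold (limma adjusted p = 1.83e-06). In control cells Myc read 10.65, 10.81, 10.45 and 10.36 at day 7, against 8.18, 8.19 and 8.81 at day 0. That rise was 2.18 ± 0.20, or 4.52-fold (limma adjusted p = 1.94e-05), and in neither cell type did the days overlap. Knockdown minus control was -0.13 ± 0.22 at day 0 (limma adjusted p = 0.853) and 0.30 ± 0.19 at day 7 (limma adjusted p = 0.376), and these differed by 0.43 ± 0.29 (limma adjusted p = 0.566).

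**Figure D4:**
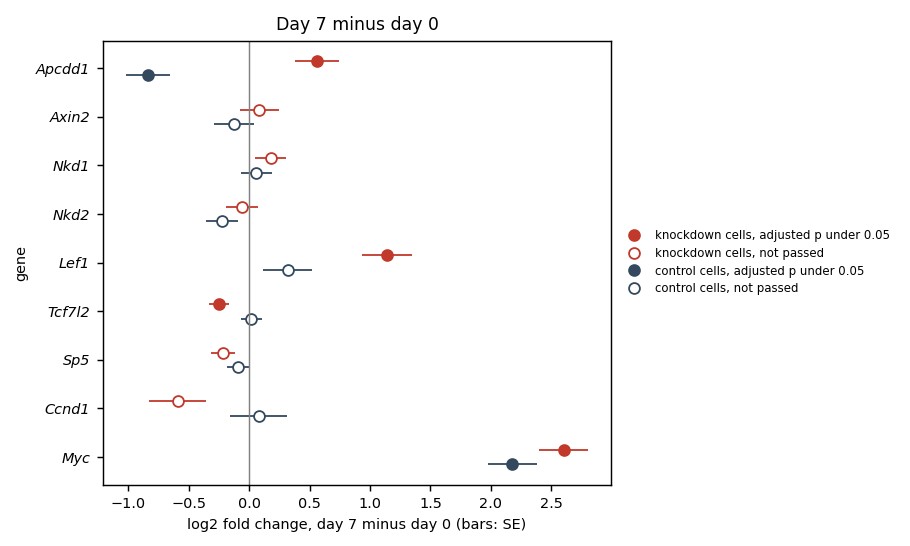
Log2 fold change, day 7 minus day 0 (horizontal axis), of the 9 measured targets in knockdown cells (red) and control cells (dark blue), with SE bars; filled points passed a limma adjusted p under 0.05. Apcdd1 lies at 0.56 in knockdown cells and at -0.83 in control cells, and Myc lies above 2 in both.

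In knockdown cells 3 targets rose between the days (Lef1, Apcdd1 and Myc) and 1 fell (Tcf7l2), beside 35.8% of all genes called. In control cells 1 rose (Myc) and 1 fell (Apcdd1), beside 22.9%. The effect of the days differed between the cell types at the threshold for 0 of the 9, as given above.

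The genes around these targets in the pathway were read from lists of their roles. Counts called with knockdown in these and the following lists stand beside 1.8% of all genes called at day 0 and 6.58% at day 7, in either direction. Those shares are for the adjusted threshold, and no share was counted for an unadjusted p under 0.05. With the replicate block 572 of the 18193 genes were called at day 0 and 1850 at day 7. Of 50 other Wnt and beta-catenin targets, 0 rose and 1 fell at day 0: Bambi, a decoy receptor of the TGF-beta family, which read 5.70, 5.26 and 5.93 in knockdown cells, against 6.89, 6.85 and 7.24 in control cells (-1.36 ± 0.18, limma adjusted p = 0.00205). At day 7 Bambi had 0.04 ± 0.15 (limma adjusted p = 0.925), and 1 of the 50 rose and 1 fell. With the replicate block 0 rose and 2 fell at day 0, and 1 rose and 4 fell at day 7. Lgr6, a receptor for R-spondins, rose by 1.95 ± 0.33 (limma adjusted p = 0.00633), and Edn1, which encodes endothelin 1, fell by 0.84 ± 0.22 on the log2 scale (limma adjusted p = 0.0426). The median of the 50 was -0.05 at day 0 and -0.02 at day 7, which over all genes was -0.05 and -0.02 too. The calls of Bambi and Lgr6 held in 14 of 14 fits that left out 1 array and that of Edn1 in 4. All day 7 values of Edn1 lay below 5.44, the lowest array median. So did those of Lgr6 in day 7 control cells, 4.46 to 4.88. Day 7 knockdown replicate 3 read 5.44 for Lgr6, against 6.70 to 7.21 on the other knockdown arrays.

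Beta-catenin itself did not pass, as its gene Ctnnb1 had 0.05 ± 0.08 at day 0 and -0.05 ± 0.07 at day 7 (limma adjusted p = 0.822 and 0.71). Of 26 genes of its nuclear partners and co-regulators, 0 passed limma's test at day 0 (2 at an unadjusted p under 0.05) and 1 fell at day 7, Tle2, a Groucho-type co-repressor (-1.17 ± 0.18, limma adjusted p = 0.00365). Of 19 genes of the destruction complex and its regulators, 0 passed at day 0 (1 unadjusted) and 1 fell at day 7, Csnk1d, a casein kinase (-0.27 ± 0.06, limma adjusted p = 0.0274). The Csnk1d call held in 8 of 14 fits that left out 1 array (limma adjusted p up to 0.0969), and that of Tle2 in 14. By the Csnk1d probe set of largest interquartile range the sign was opposite (0.42).

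Among 47 ligands, receptors and secreted modulators, 1 rose and 3 fell on each day, and with the replicate block 1 rose and 4 fell at day 0 and 1 rose and 5 fell at day 7. The R-spondin gene Rspo3, which amplifies Wnt signals, fell on both days, by 3.00 ± 0.58 at day 0 (limma adjusted p = 0.0245) and by 2.18 ± 0.51 at day 7 (limma adjusted p = 0.027). Its calls held in 10 and 9 of the 14 fits that left out 1 array. Rspo3 read 2.98 to 3.27 in day 0 knockdown cells, below every array median, against 5.61 to 6.71 in day 0 control cells. In day 7 knockdown cells it read 3.67, 3.52, 5.90 and 2.97, against 5.66 to 6.70 in day 7 control cells, and these groups overlapped. At day 0 Lgr4, an R-spondin receptor, rose by 0.69 ± 0.12 (limma adjusted p = 0.0156, held in 10 of 14). The ligand gene Wnt2b fell by 0.55 ± 0.08 (limma adjusted p = 0.00448, held in 14 of 14), and Dkk3, of the Dickkopf family of secreted proteins, fell by 1.51 ± 0.34 (limma adjusted p = 0.046, held in 3 of 14). Wnt2b read 2.48 to 2.63 in day 0 knockdown cells, against 3.02 to 3.14 in day 0 control cells. On every array it lay below 5.44, the lowest array median, so whether it was expressed is not known.

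At day 7 the receptor gene Fzd3 rose by 1.10 ± 0.20 (limma adjusted p = 0.00903), while the receptor gene Fzd2 fell by 0.79 ± 0.15 (limma adjusted p = 0.0102). Wnt5a, a ligand best known outside the beta-catenin branch, fell by 0.61 ± 0.11 (limma adjusted p = 0.00937), with the opposite sign for the probe set of largest interquartile range (0.14). All 3 calls held in 14 of 14 fits that left out 1 array. The list's median was -0.02 at day 0 and -0.07 at day 7.

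Some genes downstream of Myc were higher in knockdown cells at day 7. Of 18 genes known as Myc targets, 0 passed at day 0 (2 unadjusted) and 5 rose at day 7: Nop16 (0.63 ± 0.17), Bop1 (0.55 ± 0.11), Nolc1 (0.53 ± 0.14), Pes1 (0.44 ± 0.12) and Nop58 (0.37 ± 0.10), all of ribosome production, with limma adjusted p from 0.0134 to 0.0477, beside 3.01% of all genes called higher. Of the 18, 15 had values above 0 at day 7 and 13 an unadjusted p under 0.05, and their median was 0.34, beside -0.02 over all genes. With the replicate block 8 of the 18 rose, beside 1850 of 18193 genes called in either direction. The call of Bop1 held in 13 of 14 fits that left out 1 array and those of the others in 2 or 3. The mean of the Pes1 probe sets had the opposite sign (-0.03). Between the days 18 of the 18 rose in knockdown cells and 16 in control cells, beside 35.8% and 22.9% of all genes called in either direction.

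Of 15 cyclin, inhibitor and Myc family genes, 0 passed at day 0 (1 unadjusted) and 1 fell at day 7, the Myc antagonist gene Mnt (-0.45 ± 0.08, limma adjusted p = 0.00755). Of 26 genes of S phase and mitosis 0 passed on either day (12 at day 0 and 4 at day 7 unadjusted), and their median was -0.52 at day 0 and 0.13 at day 7. Their mean was 7.68 to 8.65 in day 0 knockdown cells, with replicate 3 highest, against 8.54 to 8.56 in day 0 control cells. Mki67 had -0.66 ± 0.28 at day 0 and 0.24 ± 0.24 at day 7 (limma adjusted p = 0.283 and 0.623). All 26 rose between the days in both cell types, beside 35.8% of all genes called in either direction in knockdown cells and 22.9% in control cells.

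Markers of fibroblasts and of fat cells moved in the same day 7 comparison as Apcdd1 and Lef1. Of 12 fibroblast markers 4 fell at day 7, Dcn (-1.43 ± 0.32), Fn1 (-0.69 ± 0.14), Pdgfra (-0.49 ± 0.13) and Col3a1 (-0.35 ± 0.07), with limma adjusted p from 0.0134 to 0.0436, and 12 of 12 values were below 0. Over all genes 6.58% were called in either direction. The day 7 groups of Fn1 and Col3a1 did not overlap, beside 13% of all genes, and those of Dcn and Pdgfra did. Calls of Fn1 and Col3a1 held in 13 of 14 fits that left out 1 array, that of Dcn in 9 and that of Pdgfra in 2. The mean of the 12 was 11.14 to 11.84 in day 7 knockdown cells, against 11.72 to 12.01 in day 7 control cells. Of the 17 regulators and markers of fat cells, 15 had values above 0 at day 7 and 11 an unadjusted p under 0.05, with a median of 0.86, beside -0.02 over all genes. Of these 17, Dgat2, of triglyceride synthesis, rose by 2.01 ± 0.41 (limma adjusted p = 0.0162, held in 11 of 14) and Cebpd, an early factor of fat cell formation, fell by 0.90 ± 0.19 (limma adjusted p = 0.0173, held in 12 of 14). Adipoq had 1.40 ± 0.98 at day 7 and 1.23 ± 1.13 at day 0 (limma adjusted p = 0.435 and 0.673). At day 7, 6 of the 17 rose and 1 fell in the blocked fit, beside 1850 of 18193 genes called there. Of 12 macrophage and 9 endothelial markers 0 passed on either day, with 2 of each unadjusted at day 0 and 0 at day 7. The part of these markers in the values of Apcdd1 and Lef1 was not tested.

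Genes whose values ran most like those of Apcdd1 and Lef1 were sought among the 9097 genes of higher mean, by Pearson's r over the 14 arrays with each value taken relative to the mean of its day. For Apcdd1 these were Dagla (r = 0.927), an enzyme of endocannabinoid synthesis, Slc39a8 (r = 0.912), a metal ion transporter, and Dhx38 (r = 0.909), a splicing helicase. For Lef1 they were Slc25a33 (r = 0.967), a mitochondrial carrier, Mrpl46 (r = 0.966), a protein of the mitochondrial ribosome, and C9orf72 (r = 0.966). The arrays are the points of each correlation, and they share groups, so r describes likeness over these arrays only.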

How the data were processed

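Each of 14 samples was hybridised to its own array. The authors deposited log2 expression values for every probe set. RMA and the affy package are named in the submitters' processing notes, and their versions and a genome build were not given. That the scale is log2 was read from its range, 1.13 to 14.37. No detection calls were used, and precision is limited by the number of arrays.

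Of 45101 probe sets, 64 control sets were left out, 34945 had 1 gene symbol in the platform annotation, 932 several and 9160 none. The probe set of highest mean over the 14 arrays stood for each of 18193 genes, and 7 of the 9 measured targets had several. Levels of different probe sets are not compared. A linear model of all arrays, with 1 mean per group and 5 contrasts, was fitted by limma (version 3.58.1, R 4.3.3) with lmFit and eBayes, leaving 12.6 moderated degrees of freedom. Adjusted p is Benjamini-Hochberg over all genes, called under 0.05, and errors are SE unless marked SD. A second fit took all named probe sets. The fit was tested on simulated data.

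The targets and gene lists were chosen with earlier results of these data known, so a list's count is no independent evidence of its direction. From the lists, every gene passing in a knockdown contrast was named, with Ctnnb1, Mki67 and Adipoq. Alternatives tried were a replicate block, leaving out each array, averaging replicates 1 and 2, other probe set rules, other scalings, a filter on dim genes, fits of only the groups compared and trend with robust moderation. Added after seeing the data were a block within each day, leaving out both day 7 replicate 3 arrays, a beta-actin covariate and the fit of all named probe sets. Replicate numbers came from the labels. Same-numbered knockdown and control arrays deviated together, with correlations from 0.268 to 0.329 at day 0 and from 0.202 to 0.764 at day 7, every one over 0.1, the level set for taking the numbers as pairs within a day. Different-numbered arrays ran from -0.323 to 0.112 at day 0 and from -0.733 to 0.679 at day 7, where some exceeded same-numbered ones: knockdown 1 with control 2 (0.679, against 0.550 with control 1) and knockdown 4 with controls 1 and 2 (0.245 and 0.262, against 0.202 with control 4). Across days the correlation of a cell type's same-numbered arrays was -0.0961 to 0.239.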

Additional observations from a re-analysis of the deposited data

Results flagged for a closer look

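In the day 7 knockdown group, replicate 3 lay far from the other 3 arrays for several targets. It read 10.85 for Lef1, below the others at 11.23 to 11.30, and 12.31 for Ccnd1, above the others at 11.26 to 11.36. For Myc it read 10.45, below the others at 10.98 to 11.03, and for Tcf7l2 probe set 1429427_s_at it read 7.44. Replicate 1 of the same group stood apart for Tcf7l2 probe set 1426639_a_at, at 8.76. In all, 24 groups of 4 arrays were examined, and chance sets apart about 1 in 20 groups. For Tcf7l2 probe set 1426639_a_at the knockdown effect differed between the days, by -1.25 on the log2 scale at day 7 minus day 0 (limma adjusted p = 0.0455). Values of different targets on 1 array are not independent.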

How the results depend on the processing

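Limits. The 3 or 4 arrays of a group limit the precision, low signals are compressed, and 3 of the 9 measured targets lay below every array median. Replicates 1 and 2 of a group lay close to each other (SD of their difference 0.132 in day 7 knockdown and 0.0968 in day 7 control cells, against 0.240 to 0.476 and 0.325 to 0.453 for other pairs). If they repeat 1 sample, errors and p-values are too small. With them averaged, 24 of all genes were called at day 0 (328 otherwise), 64 at day 7 (1197 otherwise), and for day 7 minus day 0, 4098 in knockdown cells (6506 otherwise) and 1584 in control cells (4162 otherwise). The cause of each change below was not tested, except that averaging, leaving arrays out and fitting only the groups compared leave fewer arrays.

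Of the 9 targets, 0 were called at day 0, and 1 (Tcf7l2) by the widest-ranging probe set (largest interquartile range), by the mean of all probe sets and with the beta-actin covariate. At day 7, 2 were called, and 1 (Apcdd1) with the replicate block, the mean of all probe sets, arrays shifted to one median or only the groups compared. None (0) was called at day 7 with replicates 1 and 2 averaged or by the widest-ranging probe set. With the block within each day, without both day 7 replicate 3 arrays or with the beta-actin covariate, 3 were called, with Ccnd1 lower. For the difference between the days' effects, 0 were called, and 1 (Apcdd1) without the dimmest 40% of genes, which left 6 targets, or without both day 7 replicate 3 arrays. For day 7 minus day 0 in knockdown cells, 4 were called, and 2 (Lef1 and Myc) with replicates 1 and 2 averaged or only the groups compared. In those cells 5 were called, Ccnd1 lower among them, without the dimmest genes, without both day 7 replicate 3 arrays or with the beta-actin covariate. In control cells 2 were called, and 1 (Myc) with the averaging. By the widest-ranging probe set the 2 called in control cells were Tcf7l2 and Myc, both higher. Over the fits without 1 array the counts were 0 to 0 at day 0, 1 to 3 at day 7, 0 to 1 for the difference, 2 to 5 in knockdown cells and 2 to 2 in control cells. The replicate block ended the day 7 call of Lef1, the call of Tcf7l2 probe set 1426639_a_at for the difference between the days' effects and that of Apcdd1 probe set 1449070_x_at for day 7 minus day 0 in knockdown cells (limma adjusted p = 0.0364, with the block 0.0515). It ended no other call of a target or of its probe sets. Over all genes it called 572 at day 0 and 1850 at day 7, and the block within each day 844 and 2680. Leaving out 1 array gave 101 to 631 at day 0 and 369 to 2885 at day 7. Fitting only the groups compared gave 207 and 333, without the dimmest 40% of genes 498 and 1831, without both day 7 replicate 3 arrays 690 and 2188, and with the beta-actin covariate 590 and 2804. Arrays shifted to one median gave 517 at day 0. The difference between the days' effects, called for 4 genes, was called for 26 with the block, 196 with the block within each day, 57 without the dimmest genes, 12 by the widest-ranging probe set, 266 without both day 7 replicate 3 arrays, 8 with trend and robust moderation, 1 after quantile normalization, 0 after averaging and 1 to 317 without 1 array.

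Signs turned mostly for values near 0. With arrays shifted to one median, Axin2 had -0.0035 and Nkd2 -0.0033 at day 7 and Sp5 -0.0357 at day 0. By the mean of all probe sets, Lef1 had 0.0014 and Apcdd1 0.109 at day 0, Nkd1 -0.0291 for the difference between the days' effects, Nkd2 0.0516 for the days in knockdown cells and Pes1 -0.0343 at day 7. By the widest-ranging probe set, Apcdd1 had 1.63 at day 0, -1.27 for the difference, -1.14 for the days in knockdown cells and 0.136 in control cells. By the same rule Nkd1 had -0.0974 for the difference, Nkd2 -0.0311 at day 7 and 0.141 for the days in knockdown cells, Csnk1d 0.42 and Wnt5a 0.14 at day 7. With replicates 1 and 2 averaged, Tcf7l2 had -0.0111 for the days in control cells, Nkd1 -0.0282 for the difference and Nkd2 -0.0142 at day 7. With the beta-actin covariate, Lef1 had 0.221, Ccnd1 -0.24 and Sp5 -0.0717 at day 0, and Ccnd1 -0.154 for the days in control cells, where it had -0.0513 without both day 7 replicate 3 arrays.

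Without 1 array, knockdown minus control ran from -0.32 to 0.0020 for Axin2, -0.284 to 0.0817 for Myc and -0.0107 to 0.0979 for Sp5 at day 0. At day 7 it ran from -0.0597 to 0.0842 for Axin2, -0.0365 to 0.0655 for Tcf7l2, -0.137 to 0.0105 for Nkd1 and -0.0979 to 0.0944 for Nkd2. Day 7 minus day 0 ran from -0.0039 to 0.21 for Axin2 in knockdown cells. In control cells it ran from -0.255 to 0.0664 for Axin2, -0.0201 to 0.0792 for Tcf7l2, -0.0601 to 0.144 for Nkd1 and -0.0513 to 0.178 for Ccnd1. Fits of only the groups compared give no difference between the days' effects, and the block within each day gives no day 7 minus day 0 value.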
